A study of Arabidopsis thaliana with 7 samples.

Results

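The C3H zinc finger family was taken as the genes given the family name C3H in the study's list of putative transcription factors, matched by locus to ATH1 probe sets annotated to exactly 1 gene. Of 89 listed genes, 72 had such a probe set and are described here, among 13286 genes with a probe set of their own on the array. The samples were spores of the male gametophyte of Arabidopsis thaliana, ecotype Ler-0 (stock NW20), with no genetic modification in any group. Plants were grown on compost at 21 °C with 16 h of light, and spores were isolated from many plants at a time. The stages were uninucleate microspores (UNM, 2 arrays), bicellular pollen (BCP, 2 arrays), immature tricellular pollen (TCP, 2 arrays) and mature pollen grains (MPG, 1 array). Spores of UNM, BCP and TCP were separated on a density gradient, whereas MPG were collected from open flowers by another method, so stage and isolation cannot be told apart at MPG. Whole spores were used, and each signal sums all the cells in them and any spores of a neighbouring stage. A lower signal from fewer cells of a type cannot be told apart from less RNA per cell.

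A RING finger is a small fold of cysteine and histidine residues that holds zinc. In most plant proteins that carry one it binds a ubiquitin-conjugating enzyme (E2) and passes ubiquitin to a chosen substrate, so that the protein acts as a ubiquitin ligase (E3). Chains of ubiquitin then direct many substrates to the 26S proteasome, in which a 19S regulatory particle unfolds the protein and a 20S core cuts it. The abbreviation C3H is used for several unrelated things, among them CCCH zinc fingers that bind RNA and an enzyme of phenylpropanoid synthesis, and the paper spells the family name out as that enzyme. The annotation of the listed genes was of another kind. Of the 72 measured members, 26 were annotated with a RING or C3HC4 domain, 3 with a zinc finger of no stated kind, and 43 as a protein and no more. No listed gene, 0 of 89, was annotated as a hydroxylase or a cytochrome. The family is therefore called by its list name here, and a RING domain is stated for members whose annotation names one and, as background, for those with a gene symbol whose product is known.

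The other 17 listed genes were not matched to a probe set annotated to 1 gene and are not analysed here. In the annotation used, 8730 probe sets carry no gene name. AT4G10150 and AT4G12190 lay on probe sets shared with other genes. The remaining 15 had no match among the probe sets named here: AT1G04360, AT1G33480, RHA2A, DAL1, Hrd1A, Hrd1B, DRIP2, SIS3, SDIR1, RHB1A, AIRP1, RMA2, RMA3, AIP2 and SHA1. Several of the best known Arabidopsis RING ligases are among them, including Hrd1A and Hrd1B of the endoplasmic reticulum and SDIR1 and AIP2 of abscisic acid signalling, and nothing is said of their levels. AT3G18930 had more than 1 probe set, and the brighter was used.

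A member was counted as expressed at a stage when its signal, on a scale with a trimmed mean of 100 per array, reached 40 or more on each array of the stage. By this count 53 of 72 members (73.6%) were expressed in at least 1 stage, against 57.1% of all probe sets on the array and 36.9% of 347 measured genes of the other families in the same list. The members expressed at all 4 stages numbered 28 (38.9%), against 26.7% of all probe sets and 11.5% of the other families. These shares were not tested against each other. The other families are represented by 27.5% of their listed genes, those with a named probe set, against 80.9% of the C3H genes. At UNM 40 members were expressed (55.6%, against 44.6% of all probe sets). The BCP count was 35 (48.6%, against 44.3%). The TCP count was also 35 (48.6%, against 36.6%). At MPG 46 were expressed (63.9%, against 42.9%), although there a single array had to pass. The share of all probe sets was thus lower at TCP than at BCP while the count of members was the same at both. The equal counts depended on the scaling. With quantile normalization, and also with arrays scaled to their medians, 34 members were expressed at BCP and 41 at TCP. The shares of all probe sets under these scalings are not given here.

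**Figure D1:**
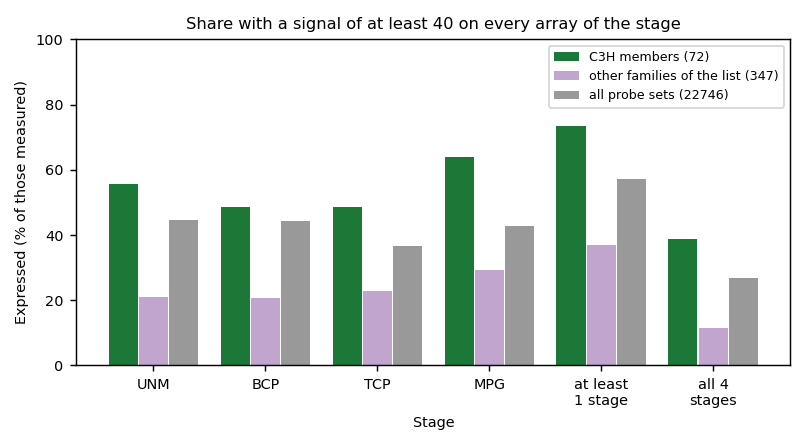
Share of the 72 C3H members, of 347 measured genes of other families in the same list and of all 22746 probe sets that were expressed at each stage, in at least 1 stage and at all 4 stages, in percent of those measured. The C3H bar is the highest of the 3 in every set, at 73.6% for at least 1 stage, where the other families are the 27.5% of their listed genes that were matched.

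The stages at which single members passed differed between members. Beside the 28 members present throughout, 9 passed at MPG only: AT1G28040, AT1G49850 (annotated as the RING-H2 protein RHY1a), AT1G53010, AT2G27940, AT2G37150, AT4G22250, AT5G07040, AT5G15790 and AT5G47610. Over all probe sets 1047 of 22746 passed at MPG only, where a single array had to pass. AT5G07040 (mean of 57.5 at BCP and 45.4 at MPG) and AT5G15790 (48.0 at UNM and 40.1 at MPG) had a higher mean at an earlier stage. Most of these 9 members lay near the minimum at the other stages too. AT1G49850, for example, had signals of 31.6 and 38.4 (UNM), 34.4 and 45.5 (BCP), 50.1 and 36.7 (TCP) and 56.1 (MPG). AT1G14200 and AT5G42200 passed at TCP and MPG only, and AT3G30460 at TCP only. At the early end, AT2G22120, AT2G37950 and AT3G10810 passed at UNM and BCP only, and AT1G26800 and AT1G73950 at UNM only. XERICO (AT2G04240), a RING-H2 protein known to raise abscisic acid content when overproduced, passed at UNM, BCP and TCP but not at MPG. Other members had mixed patterns. AT1G22510 and AT5G08750 passed at all stages but TCP, AT2G23780 and AT3G14320 at all but BCP, and AT3G02340 at all but UNM. AT5G41350 and AT5G55970 passed at UNM and MPG only.

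The remaining 19 members were expressed at no stage. Of these, 13 stayed under 40 on all 7 arrays and were not tested. Among them were the putative RING-H2 genes AT1G53820 and AT1G72220, both annotated after the RING-H2 protein ATL3, with highest signals of 23.2 and 30.0. The members nearest the minimum were AT5G10380 (37.8 at its best stage) and AT3G18930 (37.1) below it, and AT5G15790 (40.1) and AT2G37150 (40.6) above it. RING1 (AT5G10380), an E3 ligase tied to fumonisin-induced cell death, had signals of 15.6 and 56.3 (UNM), 18.5 and 41.7 (BCP), 15.0 and 35.2 (TCP) and 37.8 (MPG). DEP (AT1G70910), known for a part in seed dormancy, had 16.2 and 68.0 (UNM), 10.5 and 43.2 (BCP), 28.4 and 17.2 (TCP) and 32.2 (MPG). For both genes the 2 replicates of UNM and of BCP lay further apart than any stages did, replicate 2 being the higher, so no order of stages can be given.

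Replicate number moved with the signal of a few other members too. On signals without the floor, replicate 2 was over 2-fold higher than replicate 1 at both UNM and BCP for 4 of the 59 tested members, which were DEP, RING1, AT3G10810 and AT5G47610. Both UNM signals of AT5G47610, 2.52 and 19.5, lay under the floor. With the floor, the UNM replicates differed over 2-fold in either direction for 3 of 59 members and 493 of 14364 probe sets tested. At BCP the counts were 6 and 684. Over all 59 the UNM, BCP and TCP replicates differed by a median of 1.25, 1.25 and 1.13-fold, against 1.20, 1.22 and 1.18 over all probe sets tested. The log2 ratio of 3′ to 5′ signal of the GAPDH control, a measure of how complete the labelled RNA was, was 0.88, 0.63 and 1.06 on the replicate 1 arrays of UNM, BCP and TCP and 2.89, 2.76 and 3.19 on their replicate 2 arrays. On the MPG array it was 1.21. The part of this difference in the members' values was not tested.

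Signals of different probe sets are not on a common scale, so the largest signals below name probe sets and do not rank transcripts. At UNM the largest member means were those of AT1G74990 (1236 ± 194, SD, n = 2), AT3G19910 and AT3G15740. The same 3 led at BCP. At TCP they had been replaced by AT5G66070 (642 ± 49.6, SD, n = 2), AT5G38895 and AT1G69330, and at MPG by AT5G66070 (813), AT5G38895 (774) and AT1G74410 (580). Of the 53 expressed members, 19 had their highest stage mean at UNM (35.8%, against 38.4% of expressed probe sets), 5 at BCP (9.43%, against 19%), 5 at TCP (9.43%, against 15.4%) and 24 at MPG (45.3%, against 27.2%). The split between TCP and the other stages moved with the scaling. With quantile normalization, where 55 members were expressed, it was 11, 3, 13 and 28. With arrays scaled to their medians, also with 55 expressed, it was 13, 3, 12 and 27.

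**Figure D2:**
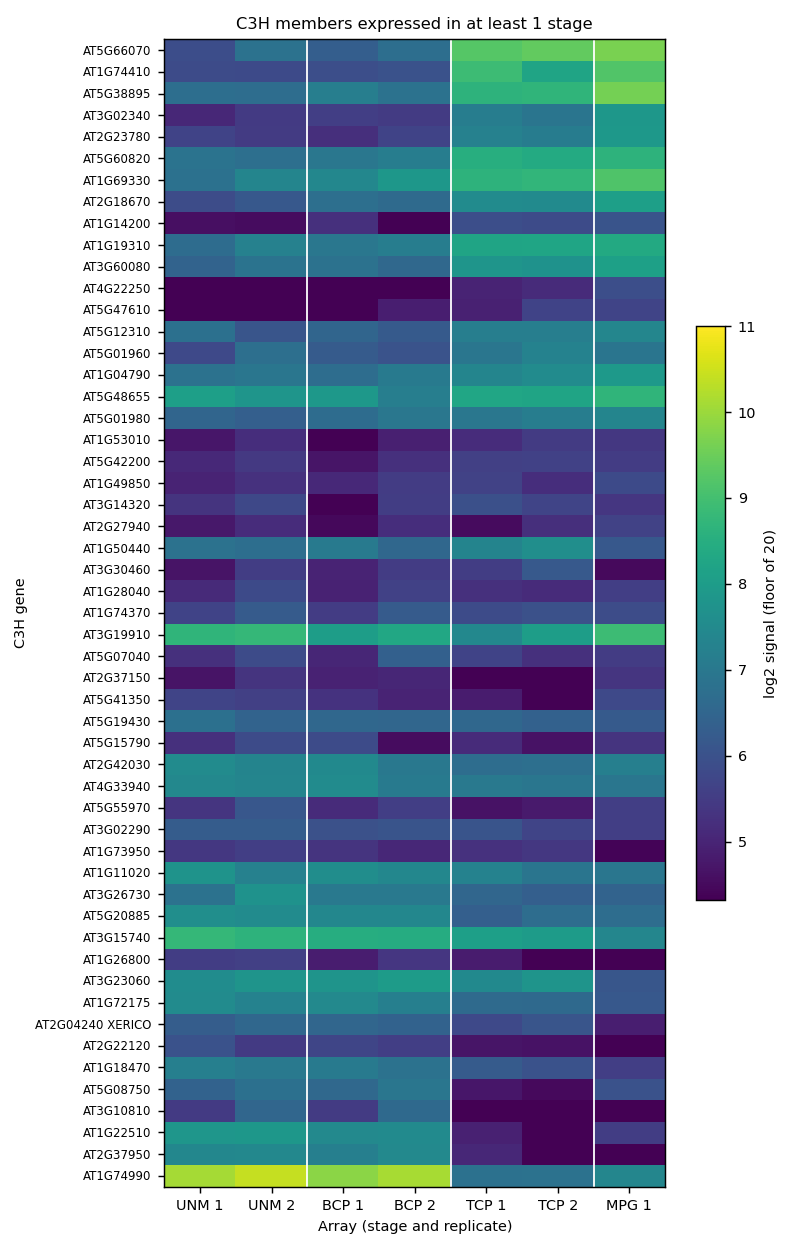
Log2 signal (floor of 20) of the 53 C3H members expressed in at least 1 stage (rows) on the 7 arrays (columns), sorted from those higher at TCP and MPG (top) to those higher at UNM and BCP (bottom). AT5G66070 and AT1G74410 lie at the top and AT1G74990, at 1099 and 1373 on the UNM arrays, at the bottom.

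Changes between stages were tested on log2 signals with limma over all 14364 probe sets that reached 40 on at least 1 array, of which 59 were members (59 of 72 measured, against 63.1% of all probe sets). Adjusted p-values are Benjamini-Hochberg values over all of these within a comparison. Errors of log2 changes are standard errors, and a fold is written as a lower bound when an array of the dimmer stage lay under the floor of 20. Comparisons with a stage in common share its arrays, and all 4 comparisons share 1 estimate of the spread, so none is independent of the others. BCP to TCP and UNM to MPG have no array in common, nor have UNM to BCP and TCP to MPG.

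Between UNM and BCP, the interval that holds the first pollen mitosis, no member passed the test in either direction (0 of 59). Over all probe sets 2.03% rose and 0.494% fell. At an unadjusted p under 0.05 the count was 2 members, against 15.8% of all probe sets. The largest rise in value was that of AT2G18670, annotated as a putative RING zinc finger protein, from 58.7 and 71.6 to 108 and 99.0 (0.67 ± 0.18, adjusted p = 0.16). The largest drop in value was that of AT5G41440, from 29.8 and 46.0 to signals under the floor (-0.89 ± 0.24, adjusted p = 0.16). The median change of members was -0.08, against -0.05 over all probe sets.

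Between BCP and TCP, over which the generative cell divides into the sperm cells, 14 of 59 tested members rose and 10 fell. Over all probe sets tested 19% rose and 37.5% fell, while the members' shares were 23.7% and 16.9%. The median change of members was 0.00, against -0.33 over all probe sets. This second median depends on the scaling. With quantile normalization the median of all probe sets was 0.01 and that of members 0.40. Then 23 of 58 members rose and 7 fell, against 3812 and 4262 of 14522 probe sets. With median scaling the medians were 0.02 and 0.33. Then 24 of 58 members rose and 6 fell, against 3913 and 4151 of 14489 probe sets. With replicate number as a block 21 of 59 members rose and 14 fell, against 3129 and 5870 of 14364 probe sets. Members lay above the median of all probe sets by a similar amount under each scaling, whereas the split between rises and falls moved.

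The 2 largest rises stood apart from the rest. AT5G66070 had signals of 59.6 and 114 (UNM), 80.4 and 107 (BCP), 607 and 677 (TCP) and 813 (MPG). All arrays of TCP and MPG lay far above all of UNM and BCP, and the rise from BCP to TCP was 6.92-fold (2.79 ± 0.34, adjusted p = 0.001). AT1G74410, a putative RING zinc finger protein, had 57.2 and 56.5 (UNM), 61.0 and 63.7 (BCP), 474 and 301 (TCP) and 580 (MPG). Its early arrays were nearly equal and its rise was 6.06-fold (2.60 ± 0.25, adjusted p = 0.00042). The TCP replicates of this gene differed more than its UNM and BCP arrays did, yet both lay far above its highest earlier signal of 63.7.

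A middle group rose by between 1 and 2 on the log2 scale. AT2G23780, another putative RING zinc finger protein, went from 51.2 and 44.7 (UNM) and 37.2 and 50.3 (BCP) to 153 and 139 (TCP) and 235 (MPG) (BCP to TCP 1.75 ± 0.22, adjusted p = 0.0011). AT5G38895 went from 106 and 105 (UNM) and 145 and 114 (BCP) to 400 and 417 (TCP) and 774 (MPG) (1.67 ± 0.19, adjusted p = 0.00076). AT3G02340 had 33.7 and 44.0, then 47.4 and 44.7, then 142 and 121, and 233 at MPG (1.51 ± 0.21, adjusted p = 0.0017). In all 3 genes the MPG signal was above both TCP arrays, but the step from TCP to MPG did not pass the test (0.69, 0.92 and 0.83). With a floor of 40 this step passed for AT5G38895 and AT3G02340. For AT5G38895 it also passed with log2(signal + 20) and with a minimum signal of 80. AT5G60820, annotated as RING finger protein-like, moved from 125 and 142 at BCP to 366 and 338 at TCP and then stayed near that level, with 396 at MPG (1.40 ± 0.17, adjusted p = 0.0011).

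AT1G19310 had 125 and 143 at BCP and 301 and 302 at TCP (1.18 ± 0.24, adjusted p = 0.0082). AT3G60080, a putative RING zinc finger protein, had 114 and 95.0 at BCP and 223 and 213 at TCP (1.07 ± 0.22, adjusted p = 0.0077). AT1G69330 had 170 and 232 at BCP and 396 and 421 at TCP (1.04 ± 0.26, adjusted p = 0.016). These 3 were higher on both TCP arrays than on any array of UNM or BCP. Of the 53 expressed members, 18 were higher on every TCP and MPG array than on any UNM or BCP array (34.0%, against 21.4% of expressed probe sets). AT1G14200 rose from signals near or under the floor, 37.9 and 16.1, to 60.9 and 57.6 (1.10 ± 0.32, adjusted p = 0.027), a change of at least 2.15-fold. Smaller rises that passed were those of AT2G18670 (0.84), AT5G12310 (0.82) and AT1G50440 (0.67, adjusted p = 0.0494). AT4G22250 also rose, from signals under the floor (12.1 and 1.61), so that its 0.74 is a lower bound and has no place in this order. Fewer of the 14 rises were called without either TCP array, and fewer rises were then called over all probe sets too. AT1G19310 then had an adjusted p of 0.064 either way, AT1G69330 of 0.088 and 0.11, and AT1G14200 of 0.15 and 0.13, while AT3G60080 lost its call only without replicate 1 (0.057). AT1G19310 (0.0503) and AT1G69330 (0.083) were also lost without BCP replicate 1.

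**Figure D3:**
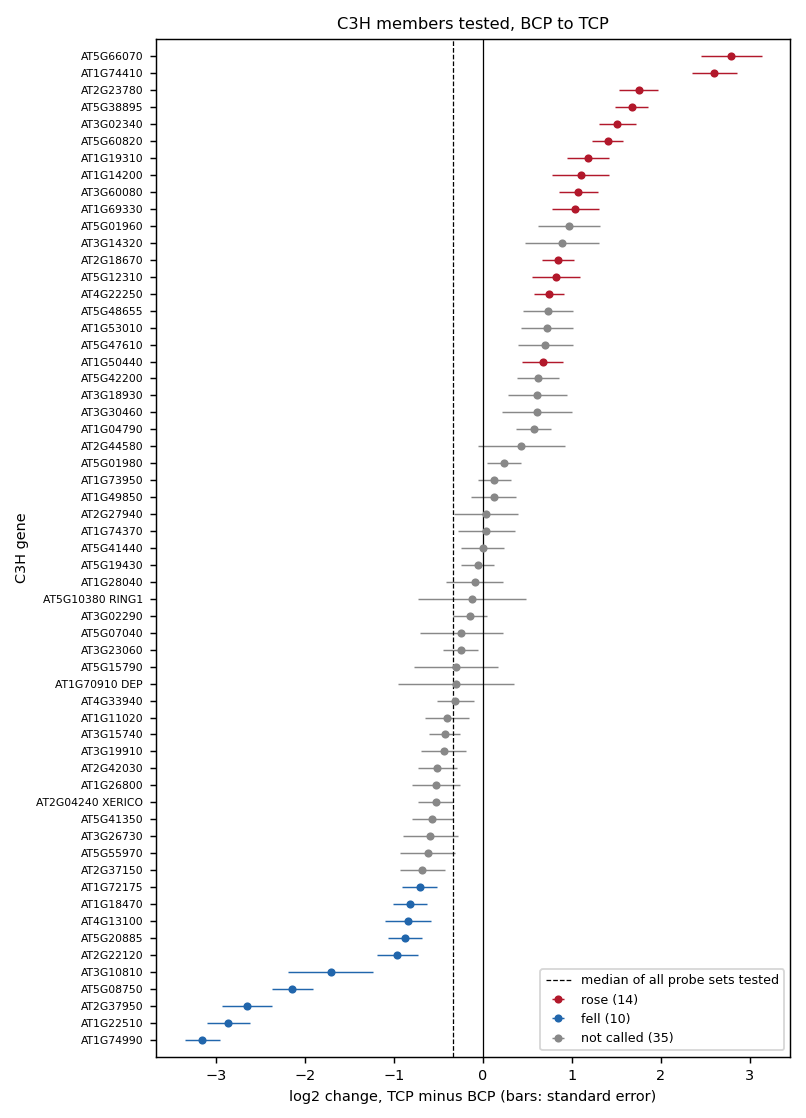
Log2 change from BCP to TCP of the 59 tested C3H members, with its standard error (bars), sorted by size. Red points passed the test as rises (14), blue points as falls (10), grey points did not pass, and the dashed line marks the median of all probe sets tested, -0.33.

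Among the 10 members that fell, AT1G74990, a putative RING zinc finger protein that the paper also names, had the lowest adjusted p of any member in this comparison. Its signals were 1099 and 1373 (UNM), 919 and 1110 (BCP), 112 and 115 (TCP) and 167 (MPG). The lowest early array, 919, was far above the highest late one, 167, and the fall from BCP to TCP was 8.90-fold (-3.15 ± 0.20, adjusted p = 0.00011). AT1G22510 fell from 176 and 182 at BCP to 30.5 and 10.1 at TCP, by at least 7.24-fold (-2.86 ± 0.24, adjusted p = 0.00026), and read 46.5 at MPG. AT2G37950 fell from 148 and 178 to 33.2 and 9.78, by at least 6.30-fold (-2.65 ± 0.28, adjusted p = 0.00057), and stayed under the floor at MPG with 14.2. BCP and TCP arrays did not overlap in any of the 3, and of them only AT1G74990 was expressed at TCP.

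AT3G10810, a putative RING zinc finger protein, had 44.5 and 96.5 at BCP and 1.51 and 7.87 at TCP, all late arrays being under the floor (a fall of at least 3.28-fold, -1.71 ± 0.48, adjusted p = 0.026). Its early replicates differed 2.17-fold at BCP, and without BCP replicate 2 the fall was no longer called (-1.15, adjusted p = 0.12). AT2G22120 went from 52.8 and 47.2 to 26.1 and 25.2 (-0.96 ± 0.23, adjusted p = 0.015). AT5G20885 went from 169 on both BCP arrays to 81.7 and 104 (-0.87 ± 0.19, adjusted p = 0.01). AT1G18470 (-0.82) and AT1G72175 (-0.71) fell by less. Under quantile and median scaling these last 4 kept their direction and did not pass the test. AT4G13100, a RING finger protein, also passed (-0.84 ± 0.26, adjusted p = 0.036), from 32.9 and 38.8 to 17.7 and 16.5, although it was expressed at no stage. Both of its TCP arrays lay under the floor, so this change is a lower bound in size. Fewer of the 10 falls were called without either TCP array or without BCP replicate 1, and fewer falls were then called over all probe sets too. The falls of AT1G74990, AT1G22510, AT2G37950, AT5G08750 and AT5G20885 were called with any 1 array left out. Of the expressed members, 14 of 53 were higher on every UNM and BCP array than on any TCP or MPG array (26.4%, against 43.7% of expressed probe sets).

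**Figure D4:**
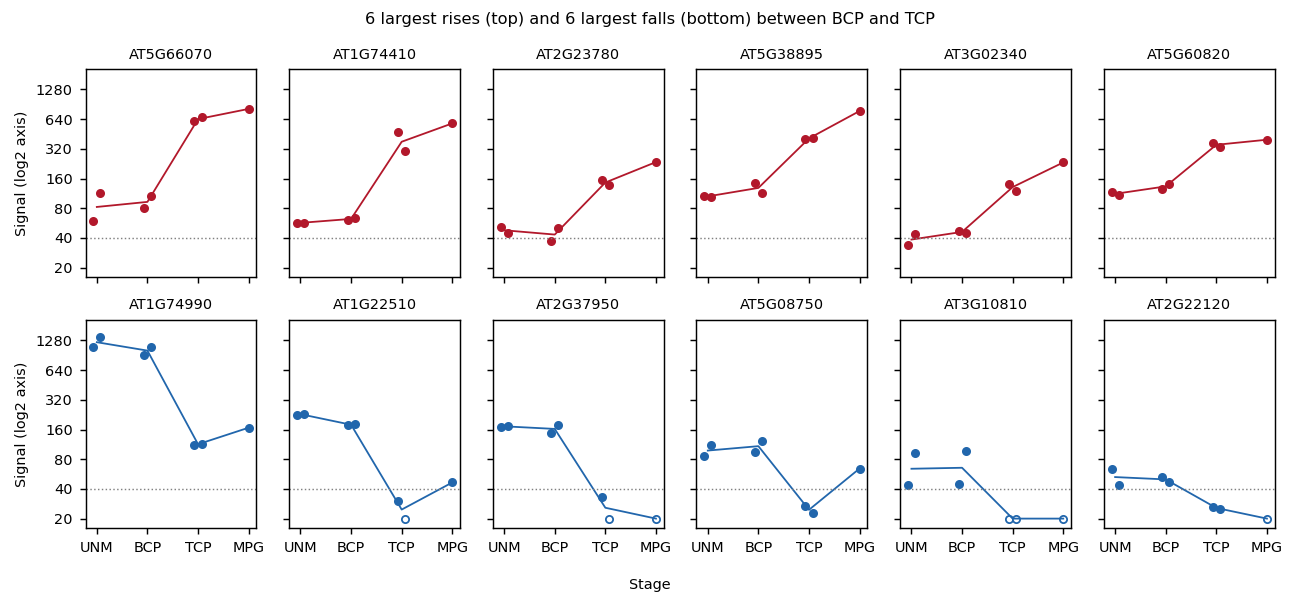
Signal on each array (points, log2 axis) and stage means on the log2 scale (lines) of the 6 members with the largest rises (top row) and the 6 with the largest falls (bottom row) between BCP and TCP. Open points lie under the floor of 20 and are drawn at it, the dotted line marks a signal of 40, and AT5G08750, at 64.4 on the MPG array, is the one gene of the bottom row whose step from TCP to MPG passed as a rise.

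Between TCP and MPG, the last step of maturation, 3 members rose and 3 fell, against 5.02% and 7.43% of all probe sets tested. The MPG side of this comparison is a single array, assumed to vary like the others. AT5G08750 reversed its course. It had 86.4 and 111 at UNM and 95.7 and 123 at BCP, fell to 26.7 and 22.6 at TCP (-2.14 ± 0.23, adjusted p = 0.00064), and then rose to 64.4 at MPG (1.39 ± 0.28, adjusted p = 0.035). AT5G41350 rose from 28.2 and 20.2 to 55.1 (1.21 ± 0.29, adjusted p = 0.0499), which brought it back to its UNM signals of 51.4 and 48.3. AT4G22250 rose at both late steps, from signals under the floor at UNM and BCP to 31.6 and 35.4 at TCP and 61.0 at MPG (TCP to MPG 0.86 ± 0.20, adjusted p = 0.0481).

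The 3 members that fell at this step had not passed as falls before it. AT3G23060 had signals of 191 and 219, 220 and 255, and 179 and 221 at the first stages and 69.2 at MPG (-1.52 ± 0.25, adjusted p = 0.021). AT1G50440 passed as a rise into TCP and a fall out of it, with 132 and 94.4 (BCP), 162 and 196 (TCP) and 71.5 (MPG) (-1.32 ± 0.28, adjusted p = 0.039). XERICO had 78.8 and 94.7 (UNM), 91.4 and 85.0 (BCP), 55.2 and 67.2 (TCP) and 29.5 (MPG) (-1.04 ± 0.24, adjusted p = 0.0468). Its MPG signal lay below all 6 earlier arrays. The rise of AT1G50440 into TCP was lost in 5 of the 6 fits with 1 array left out and with a floor of 40 (adjusted p = 0.064), and its fall to MPG with quantile normalization (adjusted p = 0.066) and median scaling (0.058). The calls of this comparison did not hold when any 1 array of UNM or TCP was left out, and only that of AT3G23060 held without either BCP array. Such fits leave a stage with 1 array, and calls over all probe sets became fewer in each of them too. The losses are therefore not particular to the members. With replicate number as a block all 6 calls of this comparison were kept and 3 more passed, giving 5 that rose and 4 that fell. Over all probe sets 1126 of 14364 then rose and 1454 fell.

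From UNM to MPG, over the whole course, 15 of 59 members rose and 14 fell (25.4% and 23.7%), against 20.1% and 40.4% of all probe sets tested. The median change of members was -0.04, against -0.53. With quantile normalization 20 of 58 members rose and 12 fell, against 3778 and 4756 of 14522 probe sets. Of the 14 members that rose between BCP and TCP, 12 also rose from UNM to MPG, and of the 10 that fell, 7 also fell. The 2 comparisons use different arrays but the same estimate of the spread. Over all probe sets the same shares were 80.8% and 86.0%, against 85.7% and 70.0% of members. The largest rises over the whole course were those of AT1G74410 (10.2-fold, 3.35 ± 0.31, adjusted p = 0.00038), AT5G66070 (3.30 ± 0.42), AT5G38895 (2.88 ± 0.23), AT3G02340 (2.59 ± 0.26) and AT2G23780 (2.30 ± 0.26). AT2G18670 had a higher signal at each stage than at the one before, from 58.7 and 71.6 at UNM to 108 and 99.0, 188 and 183, and 275 at MPG (2.08 ± 0.22, adjusted p = 0.00066). AT1G69330 followed the same order of stages (2.07 ± 0.32, adjusted p = 0.0025), and so did AT1G74410, AT3G02340, AT5G38895 and AT5G60820. AT5G47610, AT1G04790 and AT5G01980 passed only over the whole course (1.38, 1.01 and 0.94). Both UNM arrays of AT5G47610 lay under the floor (2.52 and 19.5), so its 1.38 is a lower bound.

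The members that fell over the whole course were led by AT2G37950, by at least 8.64-fold (-3.11 ± 0.34, adjusted p = 0.0007), and AT1G74990 (-2.88 ± 0.25, adjusted p = 0.00031). AT1G22510 followed (-2.30 ± 0.29, adjusted p = 0.0012). AT3G15740 declined in small steps, from 440 and 397 at UNM through 359 and 349 and then 271 and 254 to 166 at MPG (-1.33 ± 0.20, adjusted p = 0.0025). No single step of this gene passed the test in the main fit. With a floor of 40, and also with no minimum signal, its falls from BCP to TCP and from TCP to MPG both passed. With quantile normalization the fall from BCP to TCP passed. AT1G18470 went from 148 and 131 at UNM to 47.0 at MPG (-1.57 ± 0.23, adjusted p = 0.0021). XERICO (-1.55), AT3G23060 (-1.56), AT2G22120 (-1.40), AT1G72175 (-1.27), AT1G26800 (-1.25), AT1G73950 (-1.09), AT5G20885 (-0.87) and AT3G02290 (-0.72) fell too. The MPG signals of AT2G22120 (19.6) and AT1G26800 (12.4) lay under the floor, so their changes are lower bounds in size. AT5G41440 passed as well (adjusted p = 0.043) though it was expressed at no stage and lay under the floor at MPG, so that its change of -0.89 is set by the floor. Without UNM replicate 1 or without UNM replicate 2 the calls of AT1G26800, AT3G02290 and AT5G20885 were lost, and so were the rises of AT1G14200 (adjusted p = 0.068 and 0.069) and AT5G47610. AT1G04790 was lost without UNM replicate 1 and AT5G01980 without UNM replicate 2. With quantile normalization and with median scaling AT5G20885 was not called (-0.40 and -0.61), nor were AT3G02290 and AT5G41440. AT5G41440 was also lost with a floor of 40 and under the replicate block.

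In all, 32 of the 59 tested members passed at none of the 3 steps (54.2%, against 38.4% of all probe sets tested). A rise from BCP to TCP and no other call was shown by 12 (20.3%, against 13.4%), and a fall at that step and no other call by 9 (15.3%, against 34.2%). With replicate number as a block the 3 counts were 21 (35.6%, against 31.0%), 18 (30.5%, against 14.0%) and 11 (18.6%, against 35.1%). The share that passed at no step was 41.4%, against 39.6%, with quantile normalization and 43.1%, against 39.5%, with median scaling. The gap to all probe sets in this share was narrower under each of these settings than in the main fit. Among members expressed throughout, the smallest changes over the 4 stages were those of AT1G74370 and AT5G19430. AT1G74370, a putative RING zinc finger protein, had 50.6 and 76.2 (UNM), 45.6 and 76.1 (BCP), 58.1 and 63.3 (TCP) and 58.9 (MPG), where its replicates differed more than its stages. AT5G19430 had 110 and 86.7, 94.1 and 92.5, 94.5 and 84.7, and 74.8. AT3G19910, among the largest early signals, went from 411 and 438 at UNM to 264 and 320 at BCP and 173 and 262 at TCP, with 480 at MPG. None of these steps passed the test in the main fit (TCP to MPG 1.17 ± 0.31, adjusted p = 0.065). The last one did with replicate number as a block, with log2(signal + 20) and with a minimum signal of 80.

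Of 18 tested members whose annotation names a RING domain, 5 rose between BCP and TCP (27.8%) and 3 fell (16.7%). Their median change was 0.04. Of the other 41, 9 rose (22.0%) and 7 fell (17.1%), with a median of -0.06. Over all probe sets tested 19% rose and 37.5% fell. From UNM to MPG the counts were 5 (27.8%) and 1 (5.56%) for the members with a named RING domain. For the others they were 10 (24.4%) and 13 (31.7%), against 20.1% and 40.4% of all probe sets tested. The difference between these groups was not tested. The split rests on the wording of the annotation, and many of the others are annotated as a protein and no more. XERICO, a RING-H2 protein, and RING1 are among these others. The groups are therefore not members with and without a RING domain. Some members lie close to each other on a chromosome. AT1G74370, with no change called, and AT1G74410, with the largest rise over the whole course, have 4 protein-coding genes between them. AT3G02290 (-0.72 from UNM to MPG) and AT3G02340 (2.59) also have 4. AT5G01960 and AT5G01980, with 1 gene between them, were both higher at MPG than at UNM (0.65 ± 0.42 and 0.94 ± 0.24), but only the latter passed. AT5G41440 and AT5G41450 are direct neighbours and neither was expressed at any stage.

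The partners of RING ligases were read from lists of Arabidopsis ubiquitin pathway genes. Of 40 E2 enzymes, 13 were measured and 11 tested. Between BCP and TCP 3 rose and 3 fell (27.3% each, against 19% and 37.5% of all probe sets tested). From UNM to MPG 2 rose and 6 fell (18.2% and 54.5%, against 20.1% and 40.4%). UBC28 rose most, from 608 and 604 at BCP to 1968 and 2240 at TCP and 3280 at MPG (BCP to TCP 1.79 ± 0.17, adjusted p = 0.00039). UBC32, an E2 of the endoplasmic reticulum, rose from 185 and 212 to 300 and 327 (0.66 ± 0.17, adjusted p = 0.02). PEX4, the E2 that serves recycling of the peroxisomal import receptor, rose from 274 and 268 to 426 and 476 and then fell to 142 at MPG (-1.67 ± 0.21, adjusted p = 0.013). UBC30 (-1.53 ± 0.24) and UBC27 (-1.13 ± 0.19) fell between BCP and TCP. UBC16 fell from 49.5 and 50.4 to signals under the floor, 2.92 and 2.82, so its change of -1.32 is set by the floor.

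Of 30 genes listed for the 19S regulatory particle, 8 were measured, and all 8 fell between BCP and TCP (median -1.87, against -0.33 over all probe sets, of which 37.5% fell) and from UNM to MPG (median -2.42, against -0.53, with 40.4% that fell). The 8 falls between BCP and TCP were also called with quantile normalization and with median scaling, and 7 of 8 without BCP replicate 2 or without TCP replicate 1. From UNM to MPG 7 of 8 were called without either UNM array. RPN12a, a non-ATPase subunit of the particle, went from 906 and 780 at BCP to 243 and 219 at TCP and 195 at MPG (-1.87 ± 0.18, adjusted p = 0.00043). The largest fall was that of AT5G45620, from 784 and 539 to 76.9 and 64.9 (-3.20 ± 0.29, adjusted p = 0.00032). All 8 remained above 40 on every array. The 1 measured gene of the 20S core, AT1G79210, fell too (-2.78 ± 0.28, adjusted p = 0.00053). No gene of the lists of ubiquitin, of E1 enzymes or of known RING ligase substrates was matched to a named probe set, so these were not analysed here.

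**Figure D5:**
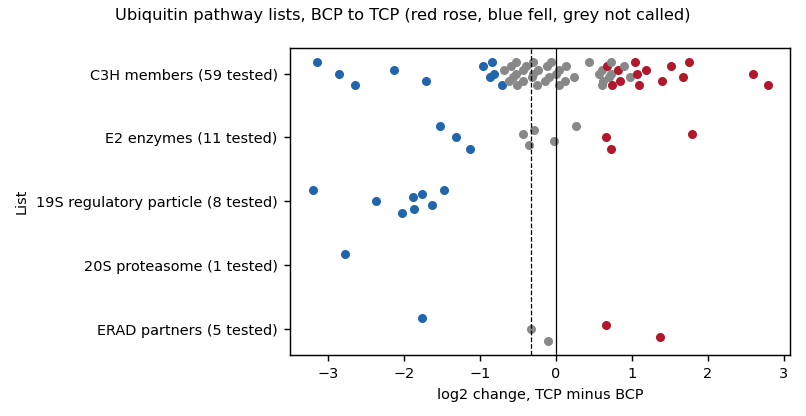
Log2 change from BCP to TCP of each tested gene (points) in the C3H family and in 4 lists of its pathway, coloured by call, with 0 (solid line) and the median of all probe sets tested (dashed line, -0.33). The 8 genes of the 19S particle all lie left of -1, while C3H members and E2 enzymes lie on both sides of 0.

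Partners of the ligases at the endoplasmic reticulum diverged. Of 9 listed genes 5 were measured. DER2.1, of the Derlin family of membrane proteins that handle misfolded proteins, rose from 382 and 348 at BCP to 915 and 968 at TCP (1.37 ± 0.18, adjusted p = 0.0015) and to 2416 at MPG (1.36 ± 0.22, adjusted p = 0.022). DER1, of the same family, fell from 280 and 240 to 81.3 and 72.4 (-1.76 ± 0.22, adjusted p = 0.0011). DER2.2, with 309 and 308 at BCP and 287 and 289 at TCP, and the lectin OS9, with 164 and 138 and then 139 and 103, did not pass.

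Markers of the cells in and around the spores were read on the same arrays. All 6 measured markers of late pollen rose between BCP and TCP, for example ANX1, a receptor kinase of the pollen tube, from 20.9 and 0.705 to 844 and 940. The sperm histone MGH3 rose from 356 and 222 to 2372 and 2435. The 2 measured of 8 tapetum markers had mean signals of at most 24.7 at any stage, and neither was expressed. SDS, a meiotic cyclin, read 45.7 and 72.0 at UNM and 45.2 and 56.9 at BCP, 1 of 2 measured meiocyte markers of 5 listed. At TCP it read 27.3 and 22.4, a change that passed the test (-1.04 on the log2 scale), and at MPG 43.5. The other measured meiocyte marker, SPO11-1, stayed under 40 on every array, with 36.2 and 19.9 at UNM and 26.1 and 33.4 at BCP. The part of residual meiotic or tapetal RNA in the members' early signals was not tested. None of the leaf markers was matched to a named probe set.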

How the data were processed

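RNA of isolated spores had been hybridized by the authors to ATH1 arrays, with replicates from independently grown plants. They deposited 1 linear intensity per probe set and array, already scaled to a trimmed mean of 100. Detection calls were not used here. The sources used here do not name the software that made these values, and the dChip normalization of the study could not be repeated. All value columns belonged to samples of the series.

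The 64 control probe sets were removed, leaving 22746, and the remaining values were brought to a 2% trimmed mean of 100 per array (largest factor 1.0084). Deposited values were floored at 20 and converted to log2. Probe sets with at least 40 on 1 or more of 7 arrays (14364) were fitted by stage in limma 3.58.1 (R 4.3.3), with 3 residual degrees of freedom and 2.77 from the prior, and Benjamini-Hochberg values under 0.05 were called within each of 4 comparisons. Counts and figures were made in Python 3.11.15 with numpy 2.4.6 and pandas 2.3.3. The number of arrays limits the precision. The spread behind the p-values is that between replicate arrays of UNM, BCP and TCP. These came from populations grown separately and also differed in the GAPDH ratio given above. The single MPG array adds nothing to this spread.

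Gene names came from the platform annotation, which gave 13513 probe sets 1 gene, 503 several and 8730 none, and from the TAIR10.1 gene table. Protein sequences were not used here, so the planned sequence classes and closest pairs by identity are absent. The members and lists were chosen with earlier results of these data known. Genes named were the largest called changes without overlapping arrays in each comparison, the 3 largest stage means, members with a symbol, AT1G74990, the 2 with the smallest range and the 3 largest called changes of each list. AT3G19910, AT5G42200, AT3G30460, the neighbouring genes and others outside this rule were named after their values were seen. The fit had no replicate term. Deviations of arrays with the same replicate number in the labels correlated for all 3 pairs of stages (0.435, 0.219 and 0.276 over 14364 probe sets), so a fit with replicate number as a block is given as an alternative. Quantile normalization, median scaling, other floors, minima and a pseudocount, a replicate block and each replicate left out were the alternatives.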

Additional observations from a re-analysis of the deposited data

How the results depend on the processing

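No call of a named member turned its direction under the 13 alternatives, although with a floor of 40 AT4G13100 and AT4G22250 had no change between BCP and TCP (0.00). Scaling mattered most between BCP and TCP, where 23 members rose with quantile normalization and 24 rose and 6 fell with median scaling. The counts over all probe sets moved as well, from 2726 rises and 5391 falls to 3812 and 4262, and to 3913 and 4151. The highest stage mean then lay at UNM for 11 members with quantile normalization, at BCP for 3 under either scaling, and at TCP for 13 and 12. With a floor of 40, 1 member (AT1G22510) fell between UNM and BCP, against 202 of 14364 probe sets. With the same floor 5 members rose between TCP and MPG, against 1124 of 14364. With log2(signal + 20) and no floor 1 member (AT5G41440) fell between UNM and BCP, against 89 of 14364. A minimum signal of 80 left 24 members expressed at UNM, 23 at MPG, 32 in at least 1 stage and 16 at all 4. With replicate number as a block all 24 calls between BCP and TCP were kept and 11 were added (21 rose and 14 fell), 5 rose and 4 fell between TCP and MPG, and from UNM to MPG only AT5G41440 was lost. Leaving out 1 array at a time left a stage with 1 array, and fewer probe sets were then called in each comparison. Between TCP and MPG the calls of members were nearly all lost. Between BCP and TCP they were fewest without either TCP array and without BCP replicate 1, and from UNM to MPG most were kept. Leaving out 1 array gave a highest stage mean at BCP for 5 to 9 members and at TCP for 5 to 8. With an array left out, fewer arrays set the spread.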
